A study of Mus musculus with 9 samples.

Results

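Accessible chromatin was measured by ATAC-seq, in which a transposase cuts and tags open DNA, in sorted epithelial cells of the mouse mammary gland. The 600 regions described here lost signal in mid pregnancy in each of 3 cell types, out of 124860 regions measured. They were selected on the deposited signal of all 9 libraries. A region was kept when log2(value + 1) in pregnancy lay at least 1 below the mean of the puberty and adult values of the same cell type, in basal, ER- luminal and ER+ luminal cells alike. In addition its 6 puberty and adult values each had to be at least 30, which 20809 regions met, so the 600 were 2.88% of the regions that could qualify. Because these values chose the regions, their loss in pregnancy is given as a description and is not tested.

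Each cell type had 1 library from mid pregnancy, 1 from adults and 1 from puberty. All 9 came from mice that the labels give as ERrtTA/TetOCre/rosaYFP, with no other genotype and no age beyond the stage. The name of that genotype combines a transactivator (rtTA, with the prefix ER), a Cre recombinase under a Tet-responsive promoter and a YFP reporter. The labels do not spell out whether the prefix ER gives the promoter behind the transactivator, and they name no doxycycline. The labels do not say how many animals gave a library, and no library has a replicate of its own. They list the molecule as total RNA, while the protocol is transposition of nuclei from sorted cells, and the values were read as ATAC-seq.

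The contractile basal cells wrap around the mammary ducts, and luminal cells line their inside. ER+ luminal cells, which express the oestrogen receptor, sense hormones, and ER- luminal cells include the progenitors of the alveolar cells that make milk. Ducts elongate and branch during puberty, and in pregnancy progesterone and prolactin drive alveolar growth. Open chromatin marks promoters, enhancers and other DNA that proteins can reach, and a region's signal can fall because fewer cells hold it open or because it is less open in each cell, which bulk libraries cannot tell apart. The table gives regions a running number and pairs them with neither coordinates nor genes, so they are described by their values, no sequence is shown and the labelled cell types could not be checked against marker genes.

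The 3 pregnancy libraries were the shallowest of the series, with 2186941 to 3418164 reads in regions, against 6679907 to 11328189 in the 6 earlier ones. Depth and stage therefore cannot be told apart by design. The deposited values are whole multiples of the worth of 1 read, which is 1.517 to 2.199 units in the pregnancy libraries and 0.526 to 0.855 units in the earlier ones. A region of the 600 typically rested on few reads in pregnancy, with medians of 15 in basal cells, 20 in the ER- and 22 in the ER+ luminal type, against medians of 88 to 284 in the earlier libraries. The ratio of the pregnancy value to the mean of both earlier values was given an exact 95% counting interval. Its upper limit was at most 0.5 in all 3 cell types for 41 of the 600 regions, and it lay below 1 throughout, which the choice of regions at these read numbers nearly fixes. Because PCR copies are not independent molecules, these intervals cover only the error of counting.

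The signal of the 600 regions fell to a similar level in the 3 cell types. In basal cells the median was 33.0 in pregnancy, against 69.7 at puberty and 109.7 in adults. In ER- luminal cells it was 30.3 in pregnancy, against 111.8 and 83.2 at the same earlier stages. In ER+ luminal cells it was 37.3 in pregnancy, against 149 at puberty and 134 in adults. The 600 regions thus entered pregnancy at unlike levels, highest in ER+ luminal cells, and their medians then lay within 7 units of each other.

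**Figure D1:**
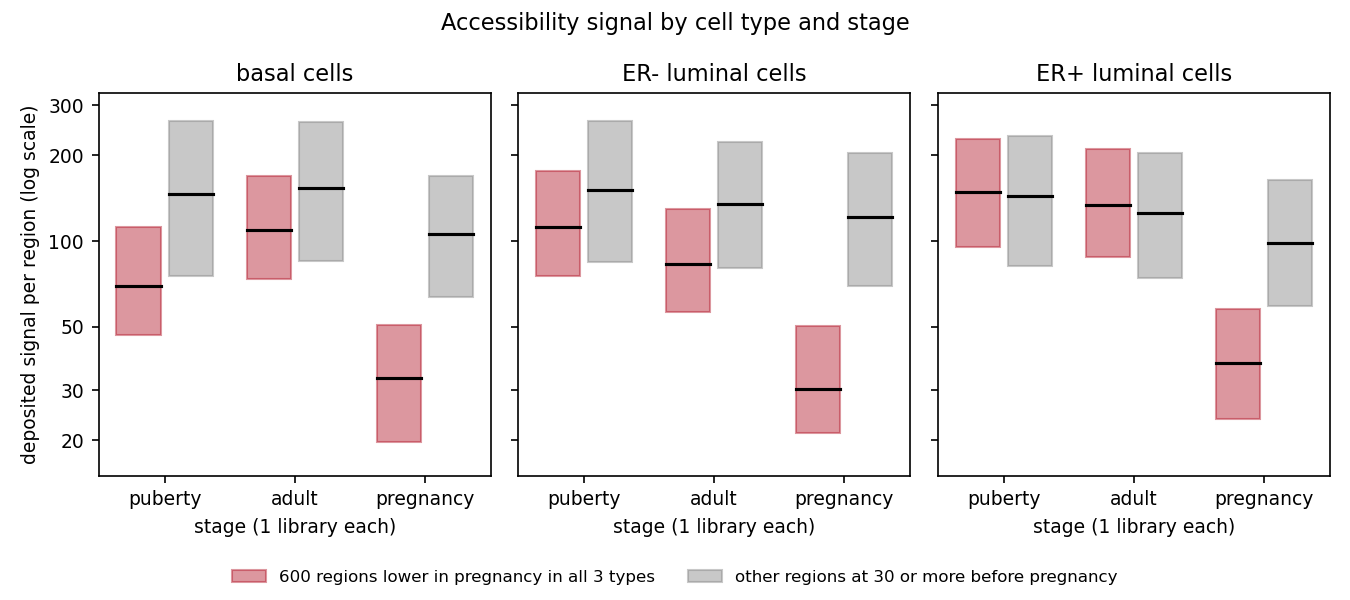
Deposited signal per region on a log axis, by stage, in basal, ER- luminal and ER+ luminal cells (1 library per stage). Boxes span the quartiles over regions and black lines mark medians, for the 600 regions (red) and the 20209 other regions at 30 or more before pregnancy (grey). The red medians in pregnancy are 33.0, 30.3 and 37.3, and the grey ones are 105.6, 121 and 98.3.

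In each cell type most of the 600 regions did not fall below the median region of the library in pregnancy. Ranked among all 124860 regions of the same library, their median percentile was 70.4 in basal pregnancy, against 83.9 at puberty and 87.3 in adults. In ER- luminal cells it was 70.2 in pregnancy, against 88.4 and 85.7 at those earlier stages, and in ER+ luminal cells 76.9, against 90.9 at both. A minority lay below the median region of the library in pregnancy, with 13.5% of them in basal cells, 8.5% in the ER- and 9% in the ER+ luminal type. Ranks do not depend on how libraries are scaled. On the deposited scale 46.3% of the 600 were below 30 in basal pregnancy, with 48% in the ER- and 37% in the ER+ luminal type. Among the other regions at 30 or more before pregnancy these shares were 3.47%, 3.71% and 4.88%. No level was set at which a region counts as closed. Only 10 of the 600 regions had 3 reads or fewer in a pregnancy library, each in 1 of the 3, and none of the 600 did so in 2 or 3 of them.

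The fall was largest in ER+ luminal cells. The median log2 change from the mean of the earlier stages to pregnancy was -1.79 there (quartiles -2.22 to -1.42), -1.46 in ER- luminal cells (-1.76 to -1.21) and -1.32 in basal cells (-1.61 to -1.14). On this scale the median region kept 28.9%, 36.4% and 40.1% of its earlier signal in the 3 cell types, in the order just given. The largest drop was in ER+ luminal cells at 360 regions (60%), in the ER- type at 143 (23.8%) and in basal cells at 97 (16.2%). Among the other regions at 30 or more before pregnancy these shares were 33.9%, 14.9% and 51.2%. ER+ luminal cells had a drop of 2 or more at 217 regions (36.2%), the ER- type at 80 (13.3%) and basal cells at 48 (8%). Such drops were found in 2.29%, 0.401% and 0.213% of those other regions. Over all 124860 regions the shares were 5.72%, 1.65% and 2.25%. The 20209 other regions that met the floor of 30 had median changes of -0.35 in the ER+ and -0.25 in the ER- luminal type and -0.53 in basal cells, so basal cells had the largest median drop among those and the smallest among the 600.

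**Figure D2:**
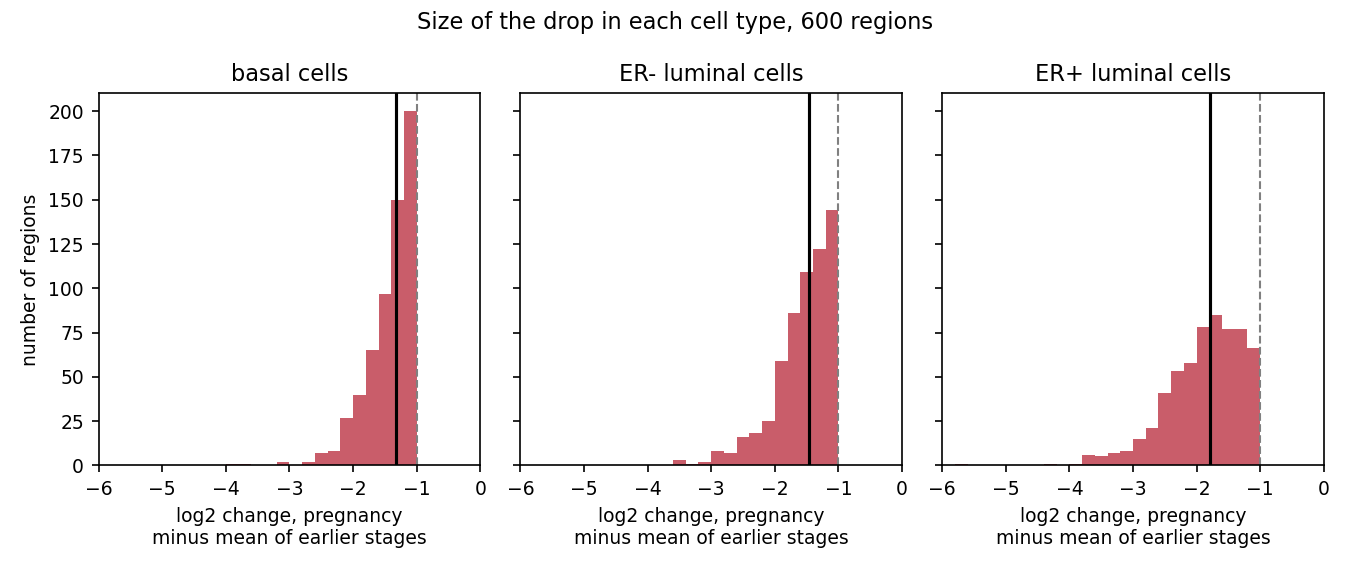
Number of the 600 regions by log2 change (pregnancy minus the mean of puberty and adult) in basal, ER- luminal and ER+ luminal cells. The dashed line is the limit of -1 that chose the regions and the black line the median, at -1.32, -1.46 and -1.79.

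Many regions lay close to the limit that chose them. The smallest of a region's 3 drops had a median of 1.18 (quartiles 1.08 to 1.36), and it lay between 1 and 1.1 in 186 regions (31%). A further 222 regions missed the limit by at most 0.1. The region just inside had a change of -1.01 in basal cells, with -1.24 in the ER- and -1.0001 in the ER+ luminal type. The region just outside had -1.41, -1.56 and -0.9994 in those cell types. Drops of at least 1.5 in all 3 cell types were seen in 81 regions, and of at least 2 in 7.

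The 3 drops of one region were often unequal. The gap between the largest and the smallest had a median of 0.72 (quartiles 0.44 to 1.04), was at most 0.5 in 193 regions (32.2%) and at least 1 in 168 (28%). Among the 20809 regions at 30 or more before pregnancy, the changes in ER- and ER+ luminal cells had a Pearson r of 0.574 across regions, those in basal and ER- luminal cells 0.309 and those in basal and ER+ luminal cells 0.161. These are descriptions across regions, which are not independent replicates. No library is shared by a pair of cell types, while stage and depth are.

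Region merged48679 had the largest minimum drop of the 600. Its signal in pregnancy was 2.199 in basal cells, with 7.58 in the ER- and 6.78 in the ER+ luminal type, from 1, 5 and 4 reads. At puberty it had 48.3, 66.0 and 42.6 and in adults 50.5, 55.0 and 56.4 in those cell types. The 3 cell types had similar values before pregnancy and each lay far lower in it, with no overlap between the stages. The ratio of pregnancy to the mean of both earlier values was 0.0445 in basal cells, with an exact 95% counting interval of 0.00112 to 0.253. It was 0.125 (0.0402 to 0.299) in ER- luminal and 0.137 (0.0368 to 0.358) in ER+ luminal cells.

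Region merged34984 came second by the same measure. In pregnancy it had 15.4 in basal cells, with 9.10 in the ER- and 6.78 in the ER+ luminal type, against 107.6, 51.6 and 56.8 at puberty and 80.5, 65.4 and 60.7 in adults. Again no pregnancy value reached an earlier one. The ratios were 0.164 (95% counting interval 0.0651 to 0.342) in basal cells, 0.156 (0.0563 to 0.346) in the ER- and 0.115 (0.0311 to 0.301) in the ER+ luminal type.

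The brightest of the 600 regions, with a mean of 438 over the 6 earlier libraries, kept more of its signal. It had 229 in basal cells in pregnancy, with 188 in the ER- and 147 in the ER+ luminal type, against 549, 533 and 383 at puberty and 519, 317 and 323 in adults. Its ratios of 0.428, 0.442 and 0.417 were nearly equal in the 3 cell types. The region at the median of the smallest drops was dimmer, with 11.0, 18.2 and 13.6 in pregnancy, against 38.0, 45.2 and 81.0 at puberty and 56.8, 40.1 and 54.7 in adults.

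**Figure D3:**
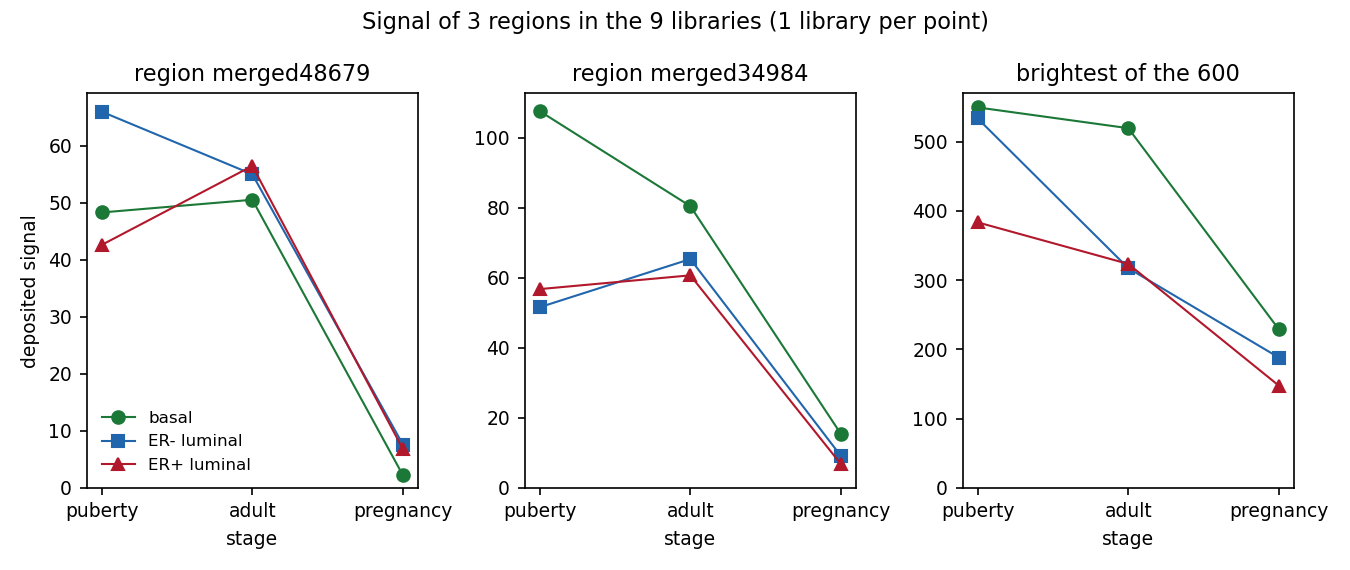
Deposited signal by stage of region merged48679, region merged34984 and the brightest of the 600 regions, with 1 library per point and a line for each cell type. Each panel has its own axis from 0, and the pregnancy points are the lowest of every panel.

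One region among the 600 had no read in a pregnancy library, and is named because its values were seen. Region merged112030 had 0 in ER+ luminal cells in pregnancy, against 46.8 at puberty and 52.2 in adults, and the exact 95% counting interval of the ratio to the mean of both had an upper limit of 0.128. In the other cell types it kept signal, with 17.6 in basal and 19.7 in ER- luminal cells in pregnancy. Its earlier values there were 41.2 and 63.9 in basal and 91.8 and 64.6 in ER- luminal cells.

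The pregnancy values lay below each earlier value of the same cell type in all 600 regions. Against the single earlier stages the median log2 change in basal cells was -1.64 from adults and -1.08 from puberty. In ER- luminal cells it was -1.28 from adults and -1.70 from puberty, and in ER+ luminal cells -1.76 and -1.87. A drop of at least 1 on all 6 such steps was seen in 218 regions (36.3%). In 427 regions (71.2%) the highest of the 3 pregnancy values lay below the lowest of the 6 earlier values, as it did in 15.1% of the 20209 other regions. The rule chose the 600 for low pregnancy values against the earlier ones, and the others failed it. These counts are therefore a description tied to the choice.

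How far the cell types fell together was read by choosing regions on a pair of them. Of the 20809 regions at 30 or more before pregnancy, 757 had dropped by at least 1 in basal and ER- luminal cells. The ER+ luminal libraries entered that choice only through the floor of 30. In them 600 of these 757 (79.3%) had dropped as far, against 18.2% of the 20809. These are the 600 regions described here, counted by the same rule, so the share is a description and not a held-out test. The 957 regions chosen on basal and ER+ luminal cells had dropped as far in ER- luminal cells in 62.7%, against 9.46%. The 1377 chosen on both luminal types had dropped as far in basal cells in 43.6%, against 15.2%. For each pair the regions past the limit in the third cell type are the same 600. The third cell type was lower in pregnancy in 98.7%, 97.8% and 95.9% of the regions chosen on a pair, against 78.1%, 74% and 85.8% of the 20809. The pregnancy libraries share both stage and low depth, so these shares cannot tell a fall with stage from an effect of depth. Of the 1291 regions past the limit in exactly 2 cell types, 777 (60.2%) missed it in basal cells, where their median change was -0.62.

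The number of such regions changed with how the libraries were scaled. Regions at 30 or more before pregnancy were lower in pregnancy as a whole, but that floor was set on the puberty and adult values alone. They were thus chosen for high values before pregnancy and not in it, and the part this played was not tested. Their median change was -0.55 in basal cells, with -0.26 in the ER- and -0.37 in the ER+ luminal type, while the medians over all 124860 regions were 0.04, 0.07 and -0.03. With libraries scaled so that these bright regions had no median difference, 99 regions met the rule. Scaling to equal total signal left 197 and quantile normalization 288, of which 196 and 265 were among the 600. With reads thinned to the depth of the shallowest library the rule found 548, of which 415 were among the 600. The 600 kept negative medians under each of these scalings, which their choice on the deposited scale nearly fixes, so this is no check of the loss. With bright regions centred these were -0.76 in basal cells, -1.20 in the ER- and -1.43 in the ER+ luminal type. Equal total signal put the median fitted log2 difference of all regions between pregnancy and the earlier stages at 0.32, against 0.05 as deposited. The 600 had medians of -1.28 and -1.57, which are tied to the choice as well.

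Values were also fitted across all 124860 regions with limma, in a model that adds a cell type effect and a stage effect. With 1 library per combination, its error is how far single libraries stray from the sum of those effects, over 4 residual degrees of freedom, and its p-values do not measure the spread between animals. Pregnancy was called lower than the earlier stages at 4.83% of all regions and at all 600, with a Benjamini-Hochberg adjusted p under 0.05. The choice of regions fixes the direction of these calls and a drop of at least 1, so they are a description. Without a variance trend in the fit 0 of the 600 were called, against 0.028% of all regions.

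The cell types differed among the 600 regions before pregnancy, which the rule did not ask for, though these levels are the base of its drops. ER+ luminal cells had the highest mean of both earlier log2 values in 384 regions (64%), ER- luminal cells in 110 (18.3%) and basal cells in 106 (17.7%). Among the other regions at 30 or more, basal cells were highest in 50.7% and ER+ luminal cells in 20.7%. Put the other way, the 600 held 8.41% of the qualifying regions that were highest in ER+ luminal cells, 1.87% of those highest in ER- luminal and 1.02% of those highest in basal cells. The rule was applied again after each of the 4 rescalings above, which was added after the values were seen. ER+ luminal cells were then highest in 60.9% to 82.8% of the regions found, against 21.1% to 33.1% of the others. Each rescaling applies the same rule to the same 9 libraries, so it cannot tell this order of cell types apart from the choice.

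The limma fit was used to compare both luminal types. Of the 600 regions, 145 (24.2%) were higher in ER+ luminal cells and 19 (3.17%) lower, with a median log2 difference of 0.32. Over all regions 13.8% were called higher and 12.3% lower, and among the other regions at 30 or more 3.47% and 9.67%. In the puberty and adult libraries alone, 192 (32%) were higher and 17 (2.83%) lower, against 21.1% and 17.9% of all regions. Among the other regions at 30 or more these shares were 6.78% and 12.8%. That fit leaves out the pregnancy values, but the earlier values are the base of the drops, so it is not free of the choice. In the fit of all 9 libraries both directions together made 164 calls, 27.3% of the 600 against 26.1% of all regions. Leaving out ER- luminal adult gave 64 calls (10.7%, against 9.87% of all regions), ER+ luminal puberty 73 (12.2%, against 12.5%) and ER+ luminal adult 77 (12.8%, against 10.7%). Without a variance trend there were 60 (10%, against 20.4%) and with library weights 258 (43%, against 47.8%). Each had more higher than lower.

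Region merged99720 had the largest positive difference. In ER+ luminal cells it had 78.0 in pregnancy, 260.3 at puberty and 255.7 in adults, against 18.2, 53.8 and 37.9 in ER- luminal cells (log2 difference 2.34, SE 0.31, limma adjusted p = 4.59e-05). It was higher in ER+ luminal cells at each stage, and both types fell in pregnancy. Basal cells resembled ER+ luminal cells here, with 90.2, 133 and 283, and the same region had the largest negative difference between ER- luminal and basal cells (log2 difference -2.13, SE 0.31, limma adjusted p = 0.000157). Region merged114537 went the other way, with 25.4, 69.9 and 53.9 in ER+ luminal cells in pregnancy, at puberty and in adults, against 92.5, 318 and 194 in ER- luminal cells (log2 difference -1.94, SE 0.30, limma adjusted p = 0.000141).

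ER+ luminal cells were also more often higher than basal cells. The limma fit called 197 of the 600 regions (32.8%) higher in ER+ luminal cells and 38 (6.33%) lower, with a median log2 difference of 0.41. Over all regions 17.1% were called higher and 18.6% lower, and among the other regions at 30 or more 8.07% and 14.5%. In the puberty and adult libraries alone, whose values are the base of the drops, 260 (43.3%) were higher and 36 (6%) lower. The shares were 24.8% and 25% of all regions, and 12.5% and 25.6% of the other regions at 30 or more. In the fit of all 9 libraries both directions together made 235 calls, 39.2% of the 600 against 35.8% of all regions. There were 145 (24.2%, against 20.5%) when ER+ luminal puberty was left out, 155 (25.8%, against 18.9%) without ER+ luminal adult and 132 (22%, against 30.1%) without a variance trend, each with more higher than lower.

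Region merged79175 had the largest positive difference of this pair. In ER+ luminal cells it had 147 in pregnancy, 339 at puberty and 267 in adults, against 15.4, 41.9 and 38.7 in basal cells (log2 difference 2.97, SE 0.32, limma adjusted p = 2.35e-06). ER- luminal cells lay between them, with 37.9, 126.9 and 46.8. Region merged98100 had the largest negative difference, with 13.6, 75.7 and 41.1 in ER+ luminal cells, against 90.2, 179 and 212 in basal cells (log2 difference -2.07, SE 0.33, limma adjusted p = 7.64e-05).

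Between ER- luminal and basal cells the direction of the count turned with single libraries. The limma fit called 60 (10%) higher in ER- luminal cells and 39 (6.5%) lower, with a median log2 difference of 0.16. Over all regions these shares were 5.74% and 8.28%. Among the other regions that met the floor before pregnancy they were 6.39% and 4.76%, which lean the same way as the 600. The puberty and adult libraries alone, whose values are the base of the drops, gave 93 (15.5%) and 48 (8%). The shares were 9.17% and 11.5% of all regions, and 8.24% and 8.51% of the other regions that met the floor. Both directions together made 99 calls, 16.5% of the 600 against 14% of all regions. Without the basal puberty library 11 were higher and 42 lower (8.83% in all, against 5% of all regions), and without the basal adult library 42 and 10 (8.67%, against 4.24%). The counts were 11 and 26 without ER- luminal puberty (6.17%, against 4.89%), 47 and 18 without ER- luminal adult (10.8%, against 6.63%) and 26 and 29 without ER- luminal pregnancy (9.17%, against 9.37%). Without ER+ luminal pregnancy 96 were higher and 65 lower (26.8%, against 21.8%). With library weights 83 were higher and 71 lower (25.7%, against 22.9%), and without a variance trend 7 and 7 (2.33%, against 6.78%). Region merged49507 had the largest positive difference, with 103.1, 253 and 204 in ER- luminal cells in pregnancy, at puberty and in adults, against 22.0, 47.5 and 77.3 in basal cells (log2 difference 1.99, SE 0.28, limma adjusted p = 0.000125).

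The order of ER- luminal and basal cells differed between the earlier stages. At puberty ER- luminal cells exceeded basal cells in 484 regions (80.7%), with a median log2 difference of 0.68. In adults they did so in 178 (29.7%), with a median of -0.32, and in pregnancy in 314 (52.3%), with a median of 0.08. In the other regions at 30 or more the medians were 0.04, -0.19 and 0.24 at those stages. ER+ luminal cells exceeded basal cells in 507 of the 600 regions (84.5%) at puberty, 363 (60.5%) in adults and 344 (57.3%) in pregnancy. They exceeded ER- luminal cells in 396 (66%), 465 (77.5%) and 328 (54.7%). Each stage and pair rests on single libraries and has no replicate check.

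**Figure D4:**
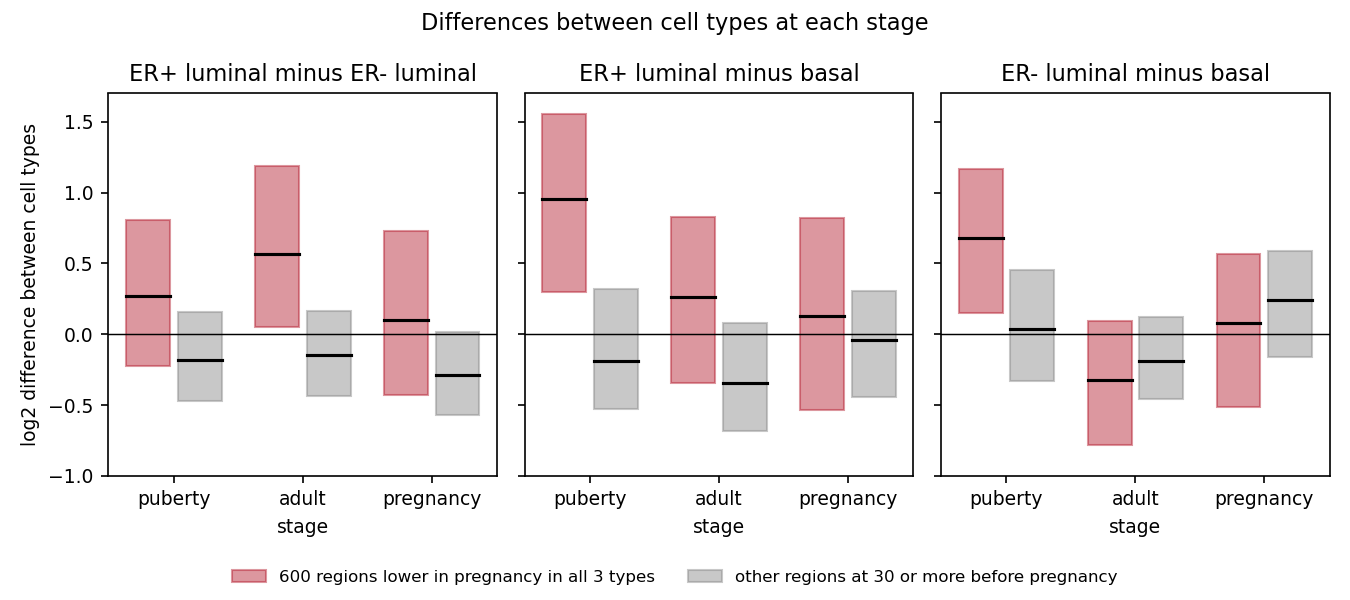
Log2 difference between cell types at puberty, in adults and in pregnancy, with boxes for quartiles and black lines for medians over the 600 regions (red) and the 20209 other regions at 30 or more before pregnancy (grey). ER- luminal minus basal has red medians of 0.68, -0.32 and 0.08, and ER+ luminal minus basal has 0.95, 0.26 and 0.13.

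The spread between cell types within the 600 regions was wide at each stage. The gap between the highest and the lowest cell type had a median log2 size of 1.21 in pubertal, 0.96 in adult and 0.98 in pregnant glands. In the other regions at 30 or more it was 0.66, 0.64 and 0.65. A gap of at least 1 was found in 63.7%, 48.5% and 47.5% of the 600, against 28.8%, 24.8% and 23.7% of the others. In pregnancy the 600 had medians of 15, 20 and 22 reads in basal, ER- luminal and ER+ luminal cells, against 48, 80 and 58 in the others. The part of counting error in the gap was not tested. The medians of the 3 cell types lay close together in pregnancy while single regions differed between them about as much as in adults, on far fewer reads.

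Adult and pubertal glands differed in opposite directions in basal and ER- luminal cells. In basal cells 532 of the 600 regions (88.7%) had a higher value in adults, with medians of 109.7 in adults and 69.7 at puberty and a median log2 difference of 0.56. In ER- luminal cells 89 (14.8%) were higher in adults, with medians of 83.2 and 111.8 and a median log2 difference of -0.45. In ER+ luminal cells 238 (39.7%) were higher in adults, with medians of 134 and 149 and a median log2 difference of -0.12, which turned to 0.01 with quantile normalization and 0.04 with bright regions centred. The other regions at 30 or more had medians of 0.03, -0.20 and -0.17 in basal cells and the ER- and ER+ luminal types, and 52.9%, 29.3% and 32.4% of them were higher in adults. Higher in basal and lower in ER- luminal adults held together in 449 of the 600 (74.8%), against 35.6% of the others. Both earlier values entered the rule, as the mean that is the base of each drop and through the floor of 30, and a region can pass on 1 high stage. This difference is therefore a description tied to the choice, as the steps from the single stages above are: in basal cells 97.8% of the 600 were lower by at least 1 than in adults and 58.5% than at puberty, and in ER- luminal cells 76.3% and 96.7%.

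**Figure D5:**
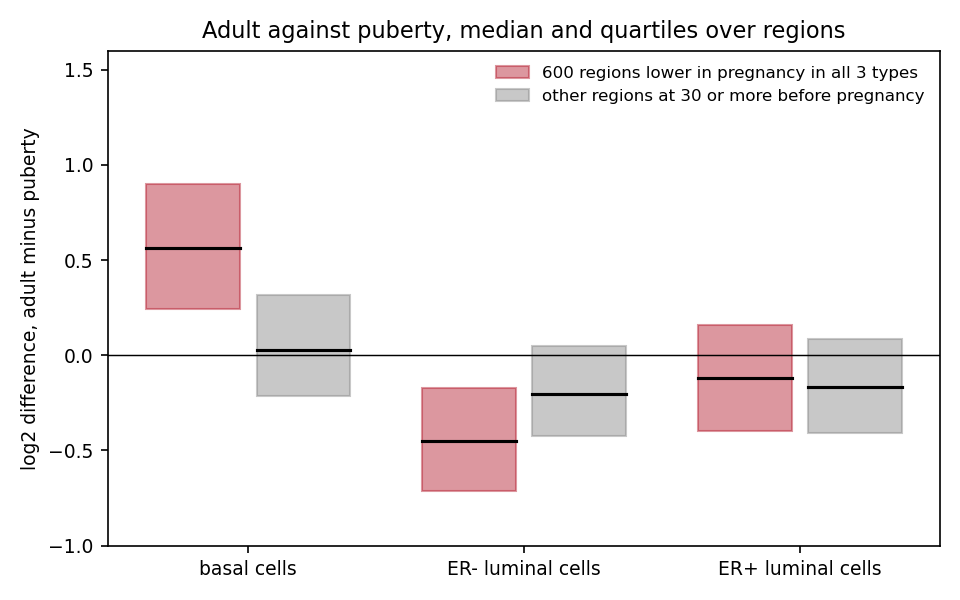
Log2 difference between adult and puberty in basal, ER- luminal and ER+ luminal cells, with boxes for quartiles and black lines for medians over the 600 regions (red) and the 20209 other regions at 30 or more before pregnancy (grey). The red medians are 0.56, -0.45 and -0.12 and the grey ones 0.03, -0.20 and -0.17.

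Among the 600 the basal median was higher in adults whichever cell type was highest before pregnancy. In regions highest in ER+ luminal cells before pregnancy, the basal median was 0.57 in the 384 among the 600 and 0.17 in the others. In regions highest in ER- luminal cells it was 0.65 and 0.10, and in regions highest in basal cells 0.42 and -0.04. In 5 classes of equal size by earlier signal, it was 0.49 to 0.62 in the 600 and -0.04 to 0.13 in the others. When the rule was applied again after each of the 4 rescalings, the regions found had basal medians of 0.36 to 0.50 and ER- luminal medians of -0.45 to -0.33. The libraries and the rule are the same there, so these medians are tied to the choice as well. Each cell type has 1 adult and 1 puberty library, and the part that a single library played was not tested.

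No difference between adult and puberty shared by the cell types was called among the 600 regions. The limma fit called 0 of them, against 0.0016% of all regions, and 19 (3.17%) had an unadjusted p under 0.05, against 4.63% of all regions. On whole reads recovered from the values edgeR and DESeq2 also called 0, and limma with library weights called 1 (0.167%, against 0.288% of all regions). A lack of calls in 9 libraries does not show that the stages were alike. The median log2 difference in that fit, which averages the 3 cell types, was 0.00 in the 600 and -0.11 in the other regions at 30 or more.

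The 600 regions leaned to the dimmer side of those that could qualify. They made up 3.53%, 4.37%, 3.94%, 1.75% and 0.817% of 5 classes of equal size, from the dimmest to the brightest by mean log2 value before pregnancy. The floor of 30 sets the lower end of that range. By running number, 19 of the 600 (3.17%) stood next to another of the 600. Of the numbers next to one of the 600 that belonged to a region at 30 or more, 6.92% were among the 600, against 2.88% of all such regions. The sources used here do not say whether the numbers follow the order of the genome.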

How the data were processed

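ATAC-seq libraries of sorted basal, ER- luminal and ER+ luminal cells from puberty, adult and mid-pregnancy glands were analysed, with 1 library for each of the 9 combinations. Per the submitters' processing notes, MACS2 2.1.0.20151222, Bowtie2 2.2.6, Picard and SAMtools were used, with build GRCm38 (mm10). The sources used here do not state how reads were counted, peaks merged, read ends shifted for the Tn5 cut or values normalized. The authors deposited 1 signal value per region and library. Within 0.02 reads, 100% of the values were whole multiples of 1 step per library, as counts divided by a size factor, and recovered reads were used in edgeR and DESeq2. Deposited values were compared as they stand.

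The regions and comparisons were chosen with earlier results of these data known. On a scale of log2(value + 1), tests used limma 3.58.1 (R 4.3.3) with cell type and stage as additive terms and a variance trend, over all 124860 regions, with Benjamini-Hochberg adjustment and no filter on low values, and called at an adjusted p under 0.05. With that pseudocount, fold changes of low regions are understated. The procedure was tested on simulated data, where it recovered large changes, missed most small ones and made more false calls for pregnancy than for the other comparisons. Alternatives were edgeR 4.0.16 and DESeq2 1.42.0, pseudocounts of 0.25 and 4, other scalings, thinned reads, library weights, no variance trend, a filter on low means, and leaving out each library. Named regions were the 2 with the largest smallest drop and, for each other comparison, the called region with the largest difference in each direction.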

Additional observations from a re-analysis of the deposited data

Results flagged for a closer look

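Among the 600 regions the difference between adult and puberty had opposite signs in basal and ER- luminal cells, which was noticed after the values had been seen. The medians of 0.56 in basal and -0.45 in ER- luminal cells were 1.01 apart on the log2 scale. The median of the per-region gap was 0.99 in the 600 and 0.23 in the other regions at 30 or more before pregnancy. Both stages enter the rule that chose the regions, as the base of each drop. The difference between the cell types was not tested, since each has 1 adult and 1 puberty library.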

How the results depend on the processing

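The number of regions that met the rule was 930 with a floor of 15, 264 with a floor of 60, 81 with a drop of at least 1.5, 288 with quantile normalization, 197 with equal total signal and 99 with bright regions centred. It stayed within 1.5 times of 600 with both pseudocounts, adult or puberty alone as the base, and thinned reads. The regions themselves changed more. With adult alone as the base 425 of the 658 found were among the 600, and with puberty alone 332 of 441. Without 1 earlier library the number of regions ranged from 371 (without basal adult) to 1048 (without basal puberty). Leaving out a pregnancy library takes the drop of that cell type out of the rule, so the count cannot fall below 600. It was 1377 without basal, 957 without ER- luminal and 757 without ER+ luminal pregnancy. Median changes that moved by more than the SD of the 3 cell type medians were, in basal cells, -0.98 with equal total signal, -0.76 with bright regions centred, -1.64 from adults alone and -1.08 from puberty alone. In ER- luminal cells they were -1.20 with bright regions centred and -1.70 from puberty alone, and in ER+ luminal cells -1.41 with quantile normalization, -1.42 with equal total signal and -1.43 with bright regions centred. The adult to puberty median in ER+ luminal cells turned to 0.00833 with quantile normalization and 0.0357 with bright regions centred. The causes were not tested.

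On recovered reads edgeR called 580 of the 600 lower in pregnancy (96.7%, against 4.07% of all regions in either direction), 155 between the luminal types (25.8%, against 26.7%), 238 between ER+ luminal and basal (39.7%, against 35.4%) and 96 between ER- luminal and basal cells (16%, against 13.8%). Library weights called 1 between adult and puberty (0.167%, against 0.288%), 258 between ER+ and ER- luminal (43%, against 47.8%) and 154 between ER- luminal and basal cells (25.7%, against 22.9%). Without a variance trend, a setting added after the data were seen, 0 were called lower in pregnancy (against 0.028%), 60 between the luminal types (10%, against 20.4%), 132 between ER+ luminal and basal (22%, against 30.1%) and 14 between ER- luminal and basal cells (2.33%, against 6.78%). Without 1 library the calls for pregnancy ranged from 517 (86.2%, against 2.08% of all regions) to 600 (100%, against 8.42%). Between the luminal types they ranged from 64 (10.7%, against 9.87%) to 190 (31.7%, against 38.4%). Between ER+ luminal and basal cells the range was 145 (24.2%, against 20.5%) to 261 (43.5%, against 47.1%). Between ER- luminal and basal cells it was 37 (6.17%, against 4.89%) to 161 (26.8%, against 21.8%). Adult against puberty had 0 throughout, against 0.000801% to 0.0104% of all regions. No paired analysis was possible because each cell type and stage has 1 library; cell type and stage are terms of the model. Pregnancy libraries, in which 1 read is worth 1.517 to 2.199 units, limit the precision of every drop.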
